A study of Mus musculus with 3 samples.

Results

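The Wnt ligands, their Frizzled receptors and the secreted proteins that amplify or block them were followed across the lineages of the early somite mouse embryo. The members were all gene symbols of the deposited feature list that begin with Wnt, Fzd, Sfrp, Dkk or Rspo followed by a digit, which gave 42 of 31054 features. They comprised 19 *Wnt* genes, 10 *Fzd* genes, 4 *Sfrp* genes, 4 *Dkk* genes, and the *Rspo* genes with 1 antisense transcript, *Rspo4os*, 5 features together. The data were single-cell RNA sequencing (3′ end counting with unique molecular identifiers, UMIs) of 3 individual wild-type embryos on a C57BL/6 x 129 SvEv background, dissociated whole at E8 (0 to 1 somite by the protocol, 0 to 2 somites by the stage label). The protocol states that extraembryonic tissue was taken off before dissociation, and the labels give no treatment. Cells with the markers of extraembryonic endoderm (2574) and extraembryonic mesenchyme (968) were found all the same. There was a single group, so the comparisons below are between lineages within the same 3 embryos, and each value for a lineage is the sum of its cells in an embryo (n = 3 embryos, except n = 2 for the erythroid lineage, which had no cell in embryo 1).

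Wnt proteins are lipid-modified secreted ligands. In the canonical branch they bind a Frizzled receptor together with an Lrp coreceptor, which stabilises β-catenin and switches on targets such as *Axin2*, *Lef1* and *Sp5*. Other ligands act without β-catenin on cell polarity and movement. Secreted Frizzled-related proteins (Sfrp) bind Wnt ligands outside the cell, Dickkopf proteins (Dkk) mostly occupy the coreceptor, and R-spondins (Rspo) raise the amount of receptor on the cell surface. In the gastrulating embryo the posterior end is known as a Wnt source that keeps axial progenitors going, whereas head and heart form where the signal is blocked.

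The 3 libraries held 6579, 8621 and 8333 barcodes, of which 21595 were kept, and the median kept cell had 27635 UMIs in embryo 1, 14615 in embryo 2 and 16332 in embryo 3. Cells were sorted into lineages by the UMIs of short marker lists that contain no member and no other Wnt pathway gene listed below. The markers were not screened for other targets of the signal, so the response genes read below may not be independent of the sort. This placed 11744 cells (54.4% of those kept) in 21 lineages, of which 20 had enough cells for sums. The other was the midbrain neural plate, with 4 cells, all in embryo 2. A further 9851 cells scored for no lineage clearly and were left out of the lineage sums. A lineage name below therefore stands for cells like that lineage by these markers. The same markers were then read in the sums, where their order was largely set by the sort and is no check of it. Most markers were highest in their own lineage, as *Foxj1* was in the left-right organizer. It stood at 179.9 counts per 1000000 UMIs of the lineage's sum (CPM) there and at 33.0 CPM in the next lineage. The exceptions were *Lhx2* for the anterior neural plate, *T*, *Sox2* and *Cyp26a1* for the caudal epiblast, *Foxa2* for the definitive endoderm, *Msx1* for the neural plate border, *Ifitm1* for the primordial germ cells, *Hand2*, *Hoxb6* and *Gata6* for the posterior lateral plate, and *Fgf8* and *T* for the late primitive streak, which were higher in another lineage. Between 18 and 22 barcodes were shared by any pair of libraries, and between 10 and 18 of the kept ones.

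Of the 42 members, 29 passed the filter on low counts and were tested together with 13306 genes in all. The other 13 were *Wnt1*, *Wnt2b*, *Wnt7a*, *Wnt7b*, *Wnt8b*, *Wnt9a*, *Wnt9b*, *Wnt10b*, *Sfrp4*, *Dkk2*, *Rspo2*, *Rspo4* and *Rspo4os*, which had between 23 and 238 UMIs each over all kept cells. A member was called higher in a lineage when its level there exceeded the mean of the other lineages on the log2 scale at a Benjamini-Hochberg adjusted p under 0.05 over all tested genes (edgeR's quasi-likelihood test). By this measure 153 of 580 member-lineage pairs were called higher, 26.4%, whereas the share was 15.2% for the pairs of all tested genes. Another 115 pairs, 19.8%, were called lower, against 10.3% of all. The map of levels shows *Wnt3a*, *Wnt6* and *Wnt2* highest in different lineages and *Wnt5a*, *Fzd2*, *Fzd3*, *Rspo3* and *Sfrp1* as broad bands. Each tested ligand held a median of 24.4% of its summed lineage levels in its top lineage and reached 10 CPM in a median of 3 of 20 lineages. The corresponding values were 13.8% and 5.50 lineages for the receptors, and 19.96% and 10 lineages for the inhibitors.

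**Figure D1:**
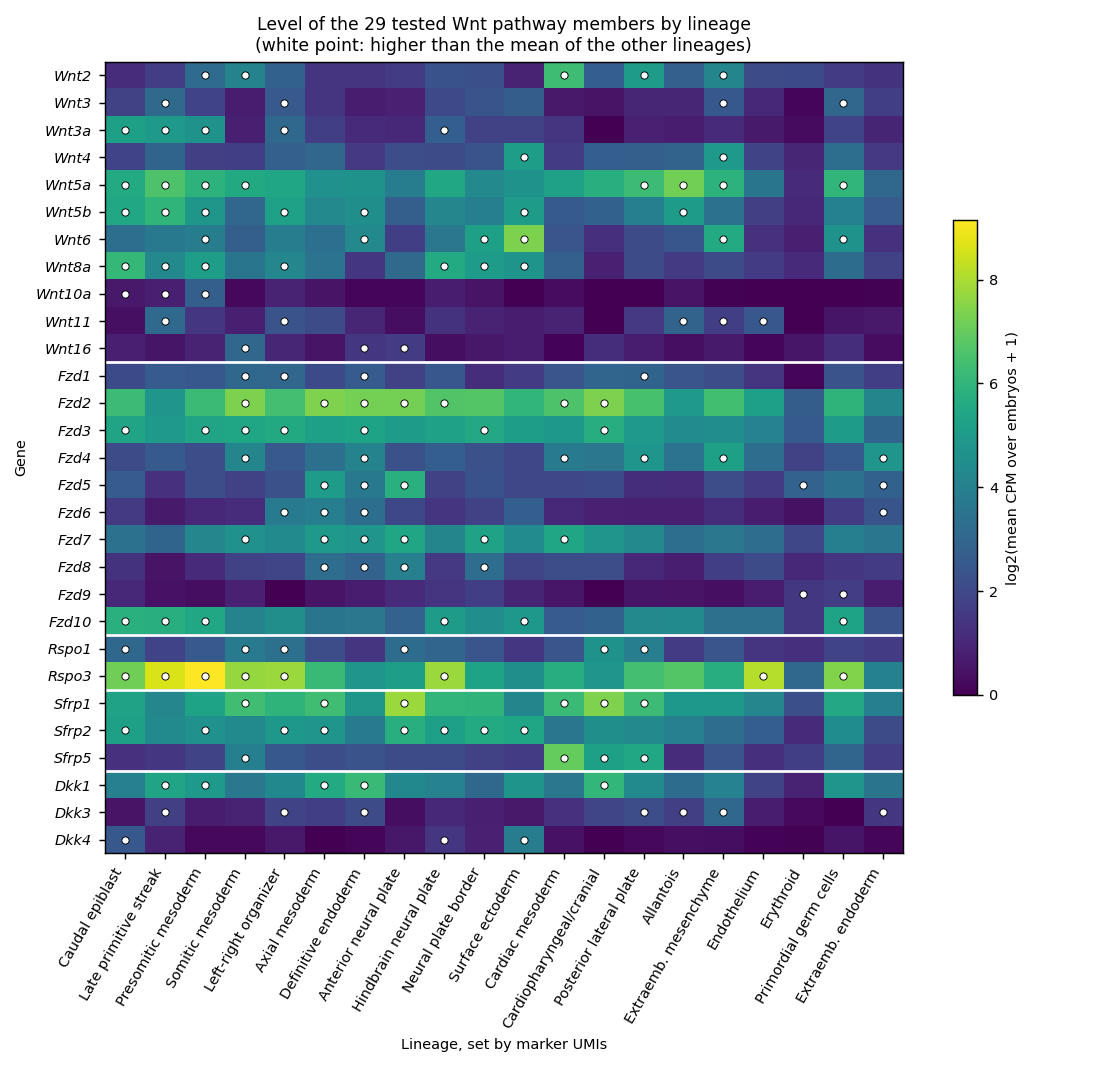
Mean level over embryos, as log2(CPM + 1), of the 29 tested members (rows, from ligands at the top to Dkk genes at the bottom) in 20 lineages (columns), with a white point where the member was called higher than the mean of the other lineages. There are 153 points. *Wnt3a*, *Wnt6* and *Wnt2* reach their highest levels in different columns, and *Rspo3* reaches the highest level of all in the presomitic mesoderm.

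Canonical posterior ligands came first. *Wnt3a* (ENSMUSG00000009900, chr11:59248033-59290752, minus strand of build mm10), the ligand required for paraxial mesoderm and the tail bud, was at 38.1, 35.5 and 32.9 CPM in the caudal epiblast of embryos 1, 2 and 3. It was at 31.9, 37.0 and 18.9 CPM in the late primitive streak and at 29.9, 18.2 and 25.3 CPM in the presomitic mesoderm. The caudal epiblast and the streak overlapped, and every one of these 9 sums lay above every sum of the other 17 lineages, the highest of which was 9.02 CPM. The call was made in 5 lineages, with a log2 difference of 4.49 ± 0.18 (SE) for the caudal epiblast (edgeR adjusted p = 1.3e-26), and the left-right organizer was called at 9.02, 8.70 and 5.02 CPM (edgeR adjusted p = 3.3e-04). The call in the hindbrain neural plate (edgeR adjusted p = 0.046) was lost without embryo 2 (adjusted p = 0.15) and without embryo 3 (adjusted p = 0.18).

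*Wnt8a* (ENSMUSG00000012282, chr18:34542313-34548273, plus strand), an early posterior ligand, had its highest levels in the caudal epiblast, at 72.2, 78.8 and 50.9 CPM. The hindbrain neural plate followed at 39.5, 61.1 and 40.2 CPM and overlapped with it. Both were called higher, with log2 differences of 3.29 ± 0.12 and 2.70 ± 0.21 (edgeR adjusted p = 6.6e-29 and 7.8e-15). *Wnt8a* was thus high in a class that held little *Wnt3a*, which stood at 2.76, 6.55 and 7.53 CPM there. The class may hold caudal cells. *Nkx1-2*, a marker of the caudal epiblast, was at 84.5 CPM in it, the highest level after the caudal epiblast itself (256.1 CPM). Of its 159 cells, 61 lay near the score limit. The part of such cells in the hindbrain values was not tested. The neural plate border had 47.9, 26.5 and 19.9 CPM of *Wnt8a*, and the surface ectoderm 29.9, 25.0 and 22.3 CPM. The border call was lost with cells thinned to 5000 UMIs (adjusted p = 0.22). Its call in the late primitive streak (edgeR adjusted p = 3.5e-07) depended on the sorting: with graph clusters in place of marker scores the log2 difference was -0.36 (adjusted p = 0.49).

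*Wnt10a* was sparse but sharply placed. The filter on low counts needs only a few sums at its limit, so *Wnt10a* may have passed it through the lineage where it was high. The p-value of its call there does not allow for this. The presomitic mesoderm held 5.65, 5.69 and 5.98 CPM, from 87 UMIs, and no other lineage exceeded 0.884 CPM on average. It was called there (edgeR adjusted p = 2.9e-15), and the further calls in the late primitive streak and the caudal epiblast rested on 6 and 9 UMIs and were lost without embryo 1 (adjusted p = 0.075 and 0.090) and without embryo 3 (adjusted p = 0.76 and 0.12). The caudal epiblast call was also lost without embryo 2 (adjusted p = 0.17). *Wnt3*, the ligand needed to start gastrulation, was low at this stage. It was at 11.2, 4.55 and 8.02 CPM in the late primitive streak, 7.32, 7.65 and 6.33 CPM in the primordial germ cells and 4.67, 4.596 and 4.83 CPM in the extraembryonic mesenchyme, all called higher. The streak and the germ cells overlapped. The germ cell call was lost without embryo 1 (adjusted p = 0.061).

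The ligands known mainly for β-catenin-independent signalling had another arrangement. *Wnt5a* (ENSMUSG00000021994, chr14:28504750-28527448, plus strand), which drives axis elongation, was highest in the allantois at 153, 149 and 137 CPM, above all 3 sums of the late primitive streak at 93.2, 101.4 and 94.3 CPM. The posterior lateral plate followed at 71.2, 74.5 and 82.7 CPM. It was the broadest ligand, at 10 CPM or more on average in 18 lineages and called higher in 8, and it was called lower in the anterior neural plate, where it had 16.9, 12.7 and 11.2 CPM. *Wnt5b*, its close relative, peaked instead in the late primitive streak at 68.7, 69.5 and 48.1 CPM, above all sums of the caudal epiblast at 42.8, 46.8 and 38.6 CPM. The left-right organizer came next at 42.3, 36.7 and 30.8 CPM (log2 difference 1.49 ± 0.18, edgeR adjusted p = 4.7e-10).

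*Wnt11*, involved in mesoderm migration and heart formation, stayed under 10 CPM in all 59 sums. It was called higher in the late primitive streak (6.79, 9.10 and 7.22 CPM), the allantois (9.72, 3.44 and 6.18 CPM), the endothelium (3.85, 5.14 and 4.98 CPM), the left-right organizer (3.47, 3.87 and 5.02 CPM) and the extraembryonic mesenchyme, the last of which was lost without embryo 1 (adjusted p = 0.079). In the axial mesoderm it was at 0, 2.48 and 7.36 CPM and was not called. *Wnt11* was at 0.303, 2.21 and 0 CPM in the cardiac mesoderm.

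Surface ectoderm and extraembryonic mesenchyme led for another pair of ligands. *Wnt6* (ENSMUSG00000033227, chr1:74771892-74785322, plus strand), known from surface ectoderm, was at 137, 204 and 139 CPM there, 3.40 times its mean in the next lineage, the extraembryonic mesenchyme (53.6, 50.7 and 36.8 CPM). These 2 lineages did not overlap. The neural plate border had 5.98, 38.5 and 61.9 CPM, a wide spread in which embryo 1 was lowest. *Wnt4*, a regulator of epithelial organisation, took the same leading pair, with 29.1, 44.2 and 27.3 CPM in the surface ectoderm and 34.4, 28.7 and 24.4 CPM in the extraembryonic mesenchyme, which overlapped, and it was called higher in no other lineage. In the extraembryonic mesenchyme, 64.8%, 66.3% and 57.1% of the cells with a *Wnt4* UMI also had a *Wnt6* UMI, and 40.5%, 28.1% and 25.6% of all its cells did. Cells with more UMIs have more chances at both, and this was not adjusted for.

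*Wnt2* (ENSMUSG00000010797, chr6:17988940-18030585, minus strand), a ligand of the heart field and splanchnic mesoderm, was at 85.4, 79.0 and 72.7 CPM in the cardiac mesoderm and at 30.3, 38.2 and 27.9 CPM in the posterior lateral plate, without overlap. The log2 difference of the cardiac mesoderm was 4.48 ± 0.18 (edgeR adjusted p = 5.0e-28). *Wnt16* was placed in the somitic mesoderm at 7.61, 8.52 and 5.21 CPM from 122 UMIs, 3.51 times its mean in the next lineage, the anterior neural plate, whose own call was lost without embryo 2 (adjusted p = 0.075).

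**Figure D2:**
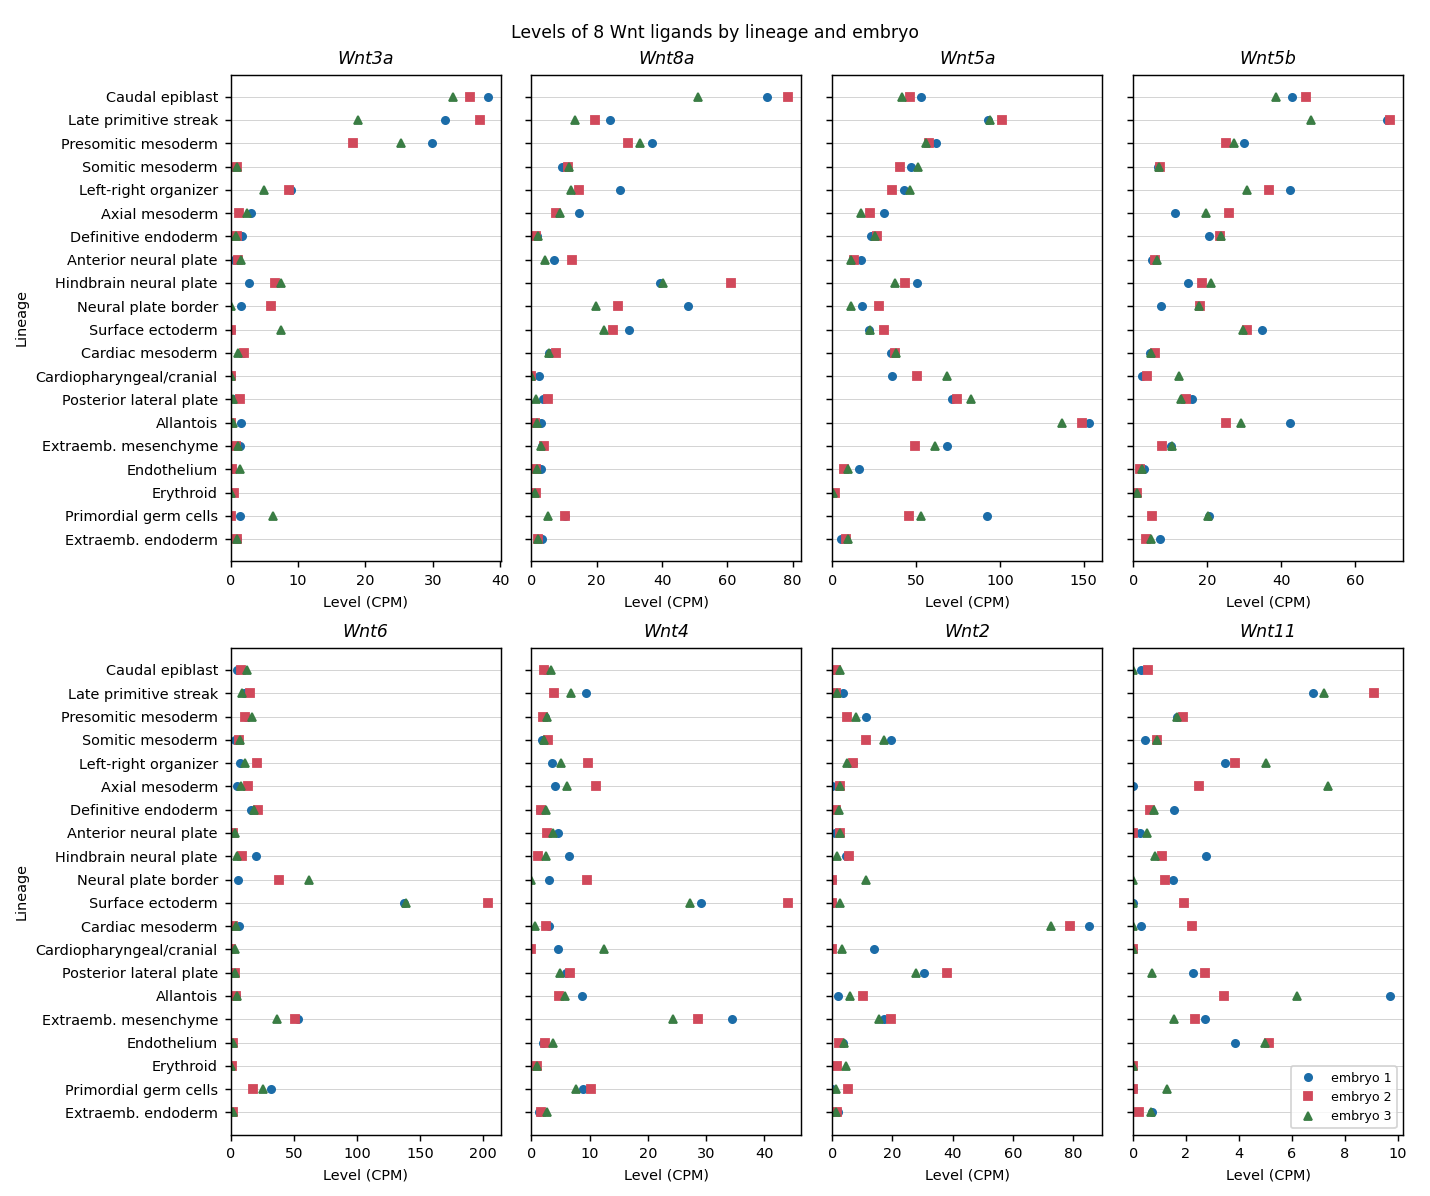
Levels in CPM (horizontal axis, linear, own range per panel) of 8 ligands in 20 lineages (vertical axis), with 1 point for each embryo. *Wnt3a* is high in 3 posterior lineages, *Wnt6* and *Wnt4* share the surface ectoderm and extraembryonic mesenchyme, and *Wnt2* stands apart in the cardiac mesoderm at 85.4, 79.0 and 72.7 CPM.

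The 8 ligands under the filter are given by their totals. *Wnt1*, the midbrain and dorsal neural ligand, had 103 UMIs over all kept cells, 71.8% of them in cells sorted into no lineage. Of the lineages with sums its highest was the neural plate border, where the embryos had 1.496, 10.8 and 0 CPM. A midbrain class had only 4 cells and gave no sum, so *Wnt1* was not read there. *Wnt2b* had 184 UMIs, *Wnt7a* 111, *Wnt7b* 148, *Wnt8b* 222, *Wnt9a* 99, *Wnt9b* 193 and *Wnt10b* 50. Of these, *Wnt9b* had most of its sorted UMIs in the extraembryonic mesenchyme, 39 of 62. Each of the 8 averaged under 10 CPM in every lineage and was not tested. Without the filter each was called higher in between 1 and 5 lineages. The share over all genes in that fit is not given here, so these counts are not set against a background. *Wnt9b* was called in the extraembryonic mesenchyme and *Wnt1* in the neural plate border, where 1 embryo held most of its level (10.8 CPM).

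Several *Wnt* genes lie side by side in the genome. *Wnt6* and *Wnt10a* are 6193 bases apart on chromosome 1 and peaked in the surface ectoderm and the presomitic mesoderm. *Wnt3a* and *Wnt9a* are 16175 bases apart on chromosome 11, and *Wnt9b* and *Wnt3* are 24328 bases apart on the same chromosome. *Wnt10b* and *Wnt1* on chromosome 15 were both too low for a test. The promoters of *Wnt3a*, *Wnt11* and *Wnt6* are shown because these ligands led in different lineages while the first 2 were called together in the late primitive streak. Each run is the 250 bases before a RefSeq start (build GRCm38.p6, the more upstream start for *Wnt11*), 5′ to 3′ on the gene's strand. The runs lie at chr11:59290752-59291001 (minus), chr7:98834862-98835111 (plus) and chr1:74771642-74771891 (plus). Capitals mark CTTTGAT or CTTTGAA, spellings of the LEF/TCF core, on either strand.
Wnt3a: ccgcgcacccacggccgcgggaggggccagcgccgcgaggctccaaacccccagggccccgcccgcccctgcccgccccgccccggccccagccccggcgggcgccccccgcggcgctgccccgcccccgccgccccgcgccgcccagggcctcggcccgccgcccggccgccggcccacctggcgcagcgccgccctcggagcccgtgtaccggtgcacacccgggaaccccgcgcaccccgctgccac
Wnt11: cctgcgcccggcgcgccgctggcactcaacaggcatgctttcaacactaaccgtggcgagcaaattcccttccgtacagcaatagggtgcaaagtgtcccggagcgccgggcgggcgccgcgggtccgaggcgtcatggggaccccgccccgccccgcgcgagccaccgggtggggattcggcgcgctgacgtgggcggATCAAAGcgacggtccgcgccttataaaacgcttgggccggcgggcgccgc
Wnt6: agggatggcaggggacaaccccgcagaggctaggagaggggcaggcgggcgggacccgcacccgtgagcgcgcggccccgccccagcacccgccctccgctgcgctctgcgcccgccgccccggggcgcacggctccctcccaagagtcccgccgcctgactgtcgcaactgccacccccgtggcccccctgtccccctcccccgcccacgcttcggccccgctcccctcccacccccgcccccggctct

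The match in *Wnt11* reads ATCAAAG and begins 51 bases before that start. The downstream *Wnt11* start, with its 250 bases at chr7:98838595-98838844 (plus), had no match. Windows of 300 bases, 250 before and 50 after a start, were found for 27 members (30 windows), and 3 of them held a match. These were the windows of the upstream *Wnt11* start, of *Dkk1* and of the most downstream of 3 *Wnt5b* starts. That is 10% of the member windows, and 8.65% of all 32851 windows held one. The member windows had a median of 28 CpG dinucleotides where all windows had a median of 7.

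Among the receptors, *Fzd2* (ENSMUSG00000050288, chr11:102604396-102608058, plus strand) made up the largest share of Frizzled counts in 17 of 20 lineages. Its mean level was at 10 CPM or more in 19 lineages. The axial mesoderm (199.8, 189.8 and 112 CPM), the somitic mesoderm (171, 164 and 154 CPM), the cardiopharyngeal and cranial mesoderm (198, 178 and 109 CPM), the definitive endoderm (173, 161 and 112 CPM) and the anterior neural plate (144, 153 and 149 CPM) had the highest levels, and the axial mesoderm overlapped with each of the others. The late primitive streak was low in it, at 27.7, 27.3 and 26.5 CPM, and was called lower. *Fzd3*, best known for axon guidance and planar polarity, was also broad: its highest mean was 10.1 times its lowest, and 18 lineages averaged 10 CPM or more. It was at 44.002, 62.1 and 46.8 CPM in the cardiopharyngeal and cranial mesoderm, 63.8, 40.6 and 33.7 CPM in the left-right organizer and 39.7, 42.2 and 38.2 CPM in the caudal epiblast. The first of these calls was lost without any 1 embryo (adjusted p from 0.068 to 0.26) and the second without embryo 1 (adjusted p = 0.11).

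*Fzd10* (ENSMUSG00000081683, chr5:128600844-128604093, plus strand) was a posterior receptor. It was at 63.4, 52.9 and 50.7 CPM in the caudal epiblast, 59.0, 51.3 and 45.3 CPM in the late primitive streak and 51.6, 41.0 and 35.2 CPM in the presomitic mesoderm, the same 3 lineages in which *Wnt3a* led, and at 6.72, 9.18 and 3.21 CPM in the anterior neural plate. In the caudal epiblast 47.5%, 22.9% and 24.7% of cells had UMIs of both. Those with any *Wnt3a* UMI were 56.6%, 36.5% and 43.5%, and those with any *Fzd10* UMI 81.0%, 51.0% and 57.3%. Deeper cells have more chances at both, which was not adjusted for, and embryo 1 was the most deeply sequenced. The calls of *Fzd10* in the hindbrain neural plate and in the surface ectoderm were each lost without 1 embryo (adjusted p = 0.11 without embryo 2 for the first, 0.27 without embryo 1 and 0.077 without embryo 2 for the second).

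*Fzd5* and *Fzd8*, receptors known from the eye field and forebrain, marked the anterior end. *Fzd5* was at 43.6, 66.5 and 56.7 CPM in the anterior neural plate, above all sums of the next lineage, the axial mesoderm (39.1, 33.5 and 23.3 CPM), and its log2 difference of 3.91 ± 0.16 was past that of every other receptor (edgeR adjusted p = 2.1e-27). *Fzd8* was at 15.2, 12.4 and 17.1 CPM in the anterior neural plate and 13.4, 8.68 and 3.68 CPM in the axial mesoderm, where the call was lost without embryo 1 (adjusted p = 0.068). *Fzd6*, a planar polarity receptor of epithelia, was called in the axial mesoderm (16.5, 12.4 and 13.5 CPM), the left-right organizer (19.4, 7.74 and 11.5 CPM), the definitive endoderm (9.79, 5.80 and 11.1 CPM) and the extraembryonic endoderm (4.68, 2.28 and 5.49 CPM), which are epithelia of the ventral surface or of the yolk sac.

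*Fzd7* was highest in the cardiac mesoderm (53.0, 34.3 and 38.7 CPM) and the anterior neural plate (51.0, 33.0 and 36.4 CPM), which overlapped. *Fzd4*, a receptor known from blood vessels, was instead highest in the extraembryonic mesenchyme (40.2, 29.1 and 38.2 CPM), the posterior lateral plate (31.0, 20.2 and 29.3 CPM) and the extraembryonic endoderm (23.9, 26.2 and 28.0 CPM), and was at 11.4, 7.20 and 7.47 CPM in the endothelium. *Fzd1* stayed under 10 CPM on average in every lineage, with its highest levels in the somitic mesoderm (9.29, 7.14 and 5.21 CPM), where it was called (edgeR adjusted p = 1.2e-04). *Fzd9* was the rarest receptor, with 430 UMIs in all, and was called in the erythroid lineage at 1.64 and 1.98 CPM in embryos 2 and 3, from 25 UMIs. Its call in the primordial germ cells, from 5 UMIs, was lost without embryo 1 (adjusted p = 0.11).

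*Rspo3* (ENSMUSG00000019880, chr10:29452416-29535867, minus strand) was the most abundant member, with 59097 UMIs. It was at 639, 516 and 543 CPM in the presomitic mesoderm, above all sums of the late primitive streak (408, 395 and 369 CPM). Every presomitic cell of embryos 1 and 3 had a UMI, as did 98.9% of those of embryo 2. In the erythroid lineage, which is not known to make it, 6.84% and 6.94% of cells in embryos 2 and 3 did, and the median depths of these lineages were 18967 and 15319.5 UMIs. The endothelium, in which the ligand levels were low, followed at 317, 199 and 324 CPM (log2 difference 1.98 ± 0.14, edgeR adjusted p = 1.8e-18). The left-right organizer had 250.4, 211 and 194 CPM and the hindbrain neural plate 237, 184 and 238 CPM.

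*Rspo1* was lower and differently placed, at 18.5, 19.4 and 34.3 CPM in the cardiopharyngeal and cranial mesoderm, 14.9, 13.4 and 14.3 CPM in the posterior lateral plate and 13.4, 9.67 and 14.7 CPM in the somitic mesoderm. The first had 32 UMIs behind it, and its sums lay above those of the other 2. The somitic call was not made with graph clusters (adjusted p = 0.38). *Rspo2* had 59 UMIs and *Rspo4* 238. *Rspo4os*, with 23 UMIs, lies within *Rspo4* on the other strand. The highest *Rspo4* levels were in the erythroid lineage, at 2.41 and 2.97 CPM in embryos 2 and 3.

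The inhibitors split by place. *Sfrp1* (ENSMUSG00000031548, chr8:23411502-23449632, plus strand) was at 241, 194 and 211 CPM in the anterior neural plate, where 98.5%, 95.3% and 92.2% of cells had a UMI, against 4.38% and 2.89% in the erythroid lineage. The cardiopharyngeal and cranial mesoderm followed at 201, 93.1 and 203 CPM, with embryo 2 lowest. *Sfrp2* was flatter over the ectoderm, at 54.0, 49.4 and 56.7 CPM in the anterior neural plate, 52.4, 42.1 and 48.6 CPM in the neural plate border, 44.4, 42.3 and 37.2 CPM in the surface ectoderm and 38.2, 37.3 and 32.5 CPM in the caudal epiblast. *Sfrp5* (ENSMUSG00000018822, chr19:42197971-42202252, minus strand), a marker of early heart precursors, was at 136, 127 and 111 CPM in the cardiac mesoderm, 2.94 times its mean in the posterior lateral plate, with no overlap (log2 difference 5.00 ± 0.17, edgeR adjusted p = 1.2e-31). It shared this lineage with the ligand *Wnt2*: 72.3%, 47.3% and 54.8% of cardiac cells in embryos 1, 2 and 3 had UMIs of both, embryo 1 being the most deeply sequenced. *Sfrp4* had 89 UMIs and was not tested.

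*Dkk1* (ENSMUSG00000024868, chr19:30545863-30549665, minus strand), the head inducer, was highest in the definitive endoderm at 78.0, 66.2 and 68.0 CPM and in the cardiopharyngeal and cranial mesoderm at 77.6, 58.2 and 59.3 CPM. The axial mesoderm had 58.7, 67.0 and 14.7 CPM, with embryo 3 far below the others. *Dkk1* was also called higher in posterior lineages that made ligand, the late primitive streak (45.2, 36.4 and 37.7 CPM) and the presomitic mesoderm (24.6, 34.5 and 29.6 CPM). It stood at 11.9, 36.5 and 6.42 CPM in the anterior neural plate, with embryo 2 apart from the others. *Dkk4* was rare. The surface ectoderm had 10.49, 17.3 and 12.4 CPM from 27 UMIs and the caudal epiblast 5.90, 3.70 and 4.61 CPM from 99 UMIs, and these were its called lineages apart from the hindbrain neural plate, where 6 UMIs gave a call that was lost without embryo 1 (adjusted p = 0.19) and without embryo 3 (adjusted p = 0.59). *Dkk3*, a divergent member of the family, was highest in the extraembryonic mesenchyme at 9.82, 5.49 and 6.96 CPM, above all sums of the posterior lateral plate at 2.92, 3.28 and 4.19 CPM, and *Dkk2* had 125 UMIs in all.

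Summing the members by role gave each lineage a sending, receiving, amplifying and blocking level. A UMI stands for 1 transcript end whatever its length, so sums over genes were taken without length scaling, and genes may still differ in how well their ends are captured. The ligand sum was highest in the surface ectoderm (259, 348 and 256 CPM), the late primitive streak (262, 266 and 210.2 CPM) and the caudal epiblast (219, 224 and 189 CPM), of which the streak overlapped with both of the others. It was 40.3, 45.7 and 39.1 CPM in the anterior neural plate, 34.4, 23.7 and 31.2 CPM in the endothelium and 8.62 and 9.25 CPM in the erythroid lineage. *Wnt6* was 55.6% of the sum in the surface ectoderm, and *Wnt5a* was 70.9% of it in the allantois.

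The receptor sum had another order. It was 378, 331 and 223 CPM in the axial mesoderm, 309, 320.4 and 296 CPM in the anterior neural plate, 147, 123.5 and 114 CPM in the late primitive streak and 108, 90.7 and 91.3 CPM in the allantois. All 3 sums of the anterior neural plate lay above all 3 of the streak. The inhibitor sum was 316, 283 and 276 CPM in the anterior neural plate, 347, 209.5 and 318 CPM in the cardiopharyngeal and cranial mesoderm and 242, 218 and 208 CPM in the cardiac mesoderm, and it was 93.5, 70.8 and 83.4 CPM in the late primitive streak. The R-spondin sum was 644, 521 and 551 CPM in the presomitic mesoderm, 99.0% of it *Rspo3*, and 31.9, 52.1 and 43.9 CPM in the anterior neural plate. These sums carry no test, and the inhibitor sum holds only *Sfrp* and *Dkk* genes. Of 8 other secreted or membrane inhibitors tested, *Frzb* and *Notum* were called higher in the late primitive streak (7.33% of all genes) and 1 lower (4.95%). In the anterior neural plate *Wif1* was called higher (14.2%) and *Frzb* lower (10.5%).

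**Figure D3:**
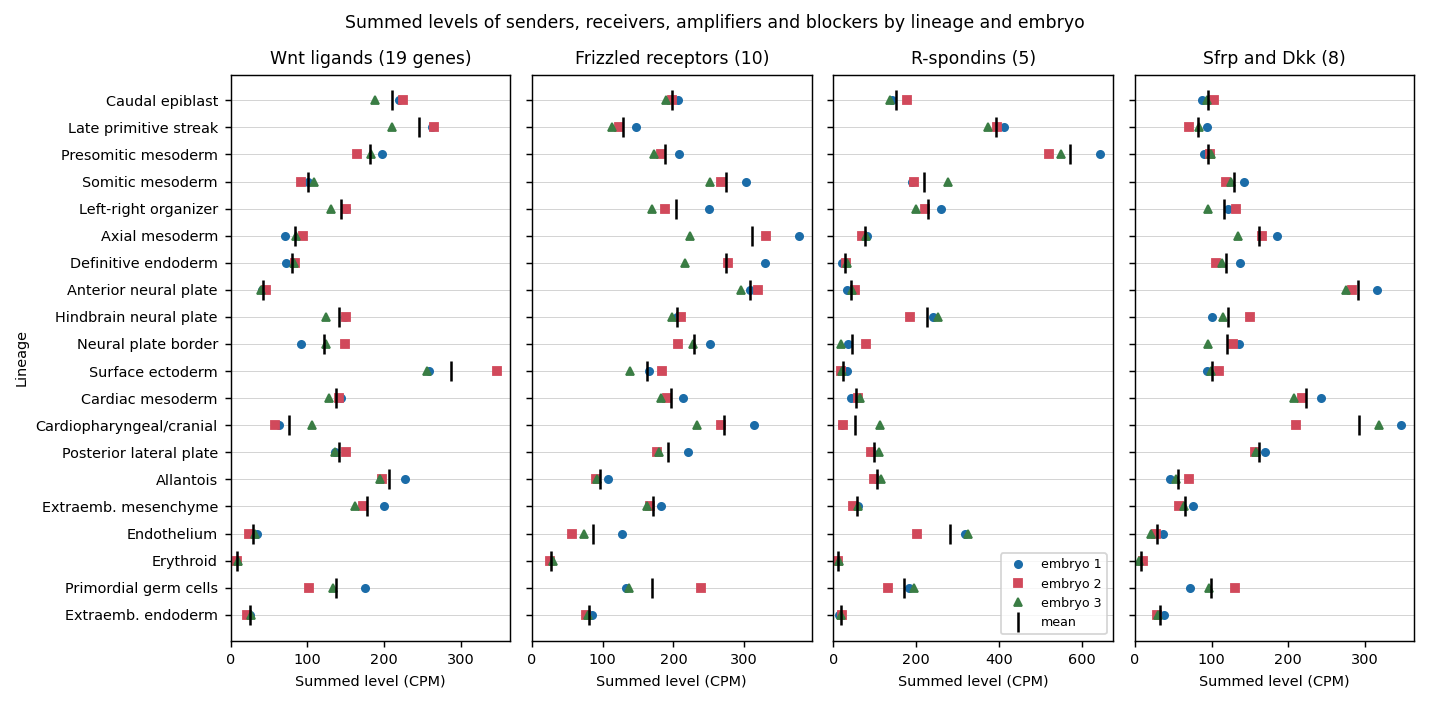
Summed CPM (horizontal axes, linear, from 0) of the 19 ligands, 10 receptors, 5 R-spondin features and 8 inhibitors in 20 lineages (vertical axis), with 1 point for each embryo and a bar at the mean. The anterior neural plate has a low ligand sum (40.3, 45.7 and 39.1 CPM) beside high sums of receptors and of *Sfrp* and *Dkk* inhibitors. The late primitive streak has the reverse.

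Lineage by lineage, between 8 and 12 members were called higher in each of the posterior lineages. In the caudal epiblast, the pool of axial progenitors, 11 of 29 members were called higher, where 13.4% of all tested genes were, led by *Wnt3a*, *Dkk4*, *Wnt8a*, *Fzd10* and *Wnt5b*. In the late primitive streak 11 were (7.33% of all genes), led by *Wnt3a*, *Wnt11*, *Rspo3*, *Wnt3* and *Wnt5b*, while 5 were called lower (4.95% of all genes). In the presomitic mesoderm 12 were (12.2%), led by *Wnt10a*, *Wnt3a* and *Rspo3*. In the somitic mesoderm, which comes from it, 12 were (11.9%), but *Wnt3a* was at 0.336, 0.921 and 0.919 CPM. The leading members there were *Wnt16*, *Wnt2*, *Sfrp5* and *Rspo1*. With graph clusters the somitic calls of *Sfrp5* (adjusted p = 0.19), *Rspo1* (adjusted p = 0.38), *Fzd4* (adjusted p = 0.11) and *Sfrp1* (adjusted p = 0.86) were lost. The posterior lateral plate had 8 (8.56%), with *Sfrp5* and *Wnt2* first.

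The left-right organizer had 12 members called higher (19.4% of all genes), the axial mesoderm 8 (14.5%), and the definitive endoderm 13 (30.5%), which included 8 of the 10 receptors. The extraembryonic endoderm had 4 called higher (37.7%) and 16 called lower (30.5% of all genes), and its leading member was *Fzd4*. Of the 12 in the organizer, 5 were ligands, 3 receptors, 2 R-spondins and 2 inhibitors. *Wnt8a* was at 27.1, 14.5 and 12.2 CPM there and *Wnt3* at 5.55, 1.93 and 7.17 CPM, and *Rspo3* was present in 75.6%, 70.2% and 75.0% of its cells. The call of *Wnt3* was lost without embryo 3 (adjusted p = 0.13), and that of *Wnt8a* with cells thinned to 5000 UMIs (adjusted p = 0.15). *Rspo1* was at 10.4, 10.6 and 7.17 CPM, *Fzd1* at 11.1, 8.70 and 1.43 CPM and *Sfrp2* at 37.5, 25.1 and 22.2 CPM. In the organizer, the calls of *Sfrp2* (adjusted p = 0.14), *Rspo1* (adjusted p = 0.17), *Fzd1* (adjusted p = 0.54) and *Fzd3* (adjusted p = 0.11) were lost without embryo 1, *Rspo1* (adjusted p = 0.12) and *Fzd1* (adjusted p = 0.17) also without embryo 2. The *Dkk3* call there, from 10 UMIs, was lost with the embryo as a replicate block (adjusted p = 0.053).

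In the ectoderm, the anterior neural plate had 8 members called higher (14.2% of all genes), led by *Fzd5*, *Fzd8* and *Sfrp1*, and 6 called lower (10.5%). The hindbrain neural plate had 7 (4.4%), led by *Wnt8a*. The neural plate border had 6 (3.65%) and the surface ectoderm 7 (5.47%), led by *Dkk4*, *Wnt6* and *Wnt4*. In the border, *Fzd7* was lost without embryo 1 (edgeR adjusted p = 0.092) and without embryo 3 (adjusted p = 0.11), and *Fzd3* (adjusted p = 0.37) and *Fzd8* (adjusted p = 0.16) without embryo 2. Thinning to 5000 UMIs lost these calls too. In the hindbrain, *Fzd2* was lost without embryo 2 (adjusted p = 0.24) and without embryo 3 (adjusted p = 0.22). A stricter sorting margin lost *Wnt3a* (adjusted p = 0.34), *Dkk4* (adjusted p = 0.52) and *Fzd10* (adjusted p = 0.092) there. The cardiac mesoderm had 6 (11.9%), led by *Sfrp5* and *Wnt2*, and the cardiopharyngeal and cranial mesoderm, the smallest lineage with 76 cells, 6 (3.28%). In the allantois 4 were called higher (16.2%), *Wnt11*, *Wnt5a*, *Wnt5b* and *Dkk3*, the last lost without embryo 1 (adjusted p = 0.28) and without embryo 2 (adjusted p = 0.12).

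The extraembryonic mesenchyme had 8 members called higher (21.1% of all genes), the primordial germ cells 6 (8.79%), and the endothelium 2, *Wnt11* and *Rspo3* (25.8%), against 18 called lower (19.8%). The erythroid lineage had 2, *Fzd9* and *Fzd5* (33.1%), against 18 called lower (27.3%). The *Fzd5* call there was lost without embryo 2 (adjusted p = 0.0504). Blood and endothelium thus lay under the background share of higher calls, at 6.90% of members each.

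The caudal epiblast was then compared with the anterior neural plate, the posterior and anterior ends of the neural axis. Of 29 members, 8 were higher in the caudal epiblast (5.06% of all tested genes were) and 6 were lower (5.14%). Of the 8, 5 were ligands. *Wnt3a* differed by 5.17 ± 0.41 on the log2 scale (SE, edgeR adjusted p = 1.2e-14), from 38.1, 35.5 and 32.9 CPM to 0.498, 1.08 and 1.61 CPM. *Wnt8a* (2.97 ± 0.23), *Wnt5b* (2.89 ± 0.23) and *Wnt5a* (1.72 ± 0.20) differed the same way, as did *Wnt6* (2.09 ± 0.52), whose call was lost without embryo 2 (adjusted p = 0.095) and with graph clusters (adjusted p = 0.25). The others were *Fzd10* (2.99 ± 0.29), *Rspo3* (2.08 ± 0.26) and *Dkk4*, which was at 0.996, 0.540 and 0 CPM in the anterior neural plate.

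The 6 that were lower in the caudal epiblast were 4 receptors and 2 inhibitors. *Fzd5* differed by -3.34 ± 0.25, *Fzd8* by -3.15 ± 0.32, *Fzd7* by -2.09 ± 0.26 and *Fzd2* by -0.99 ± 0.19. *Sfrp1* differed by -2.58 ± 0.21 (edgeR adjusted p = 7.3e-15) and *Sfrp2* by -0.58 ± 0.14, a call that was lost without embryo 3 (adjusted p = 0.069). *Dkk1*, at -0.48, was not called (edgeR adjusted p = 0.40). Other secreted or membrane inhibitors went both ways. Of 8 tested, 3 were higher in the caudal epiblast (5.06% of all genes), *Frzb* and *Notum* among them. *Cer1*, whose action on Wnt ligands was not tested here, was lower (5.14%).

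**Figure D4:**
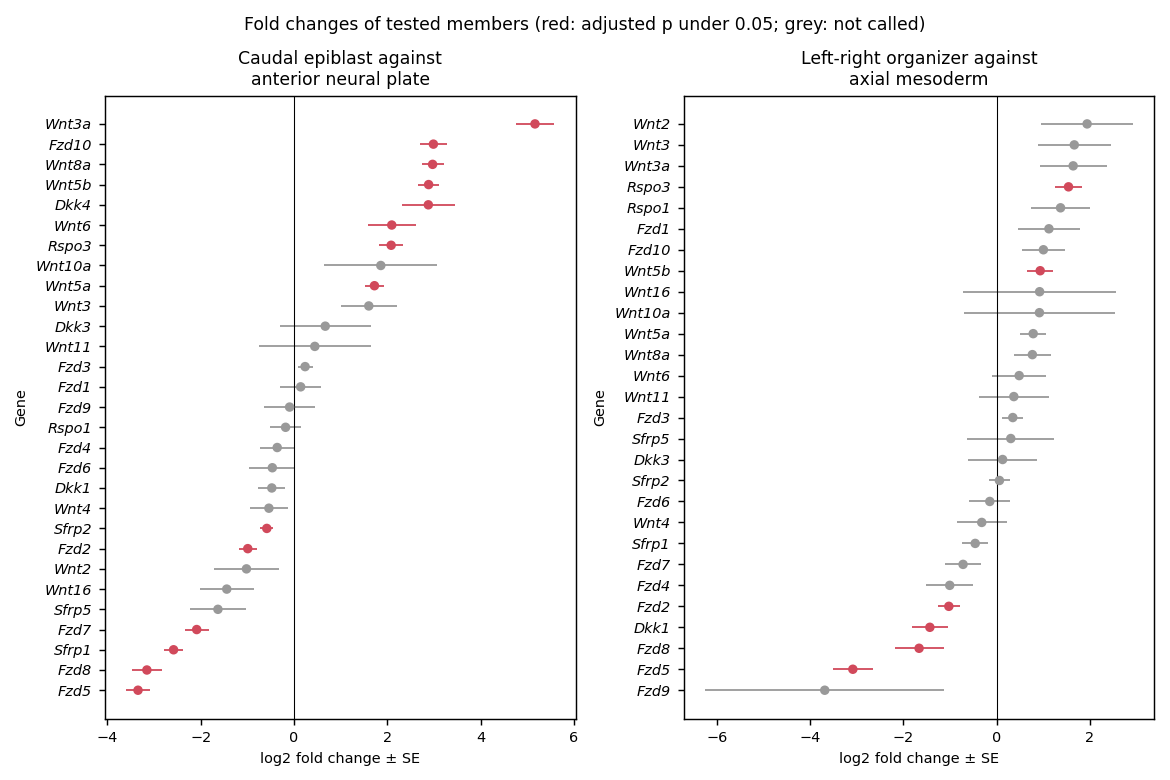
Fold changes on the log2 scale with their SE (horizontal axis) for the tested members (vertical axis, sorted), in the caudal epiblast against the anterior neural plate and in the left-right organizer against the axial mesoderm, where *Dkk4* is left out because its SE could not be estimated usably. In the first panel *Wnt3a* lies at the positive end and *Fzd5* at the negative end, and in the second 6 members are called.

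Between the caudal epiblast and the presomitic mesoderm, into which its cells move, 4 members were higher in the caudal epiblast (4.92% of all genes) and 6 were lower (5.62%). *Wnt8a* was higher by 1.00 ± 0.19 on the log2 scale (edgeR adjusted p = 6.3e-05). *Dkk4* was also higher, at 5.90, 3.70 and 4.61 CPM against 0.105, 0 and 0.332 CPM. *Wnt5b* (0.62 ± 0.17) was lost without embryo 2 (adjusted p = 0.14) and without embryo 3 (adjusted p = 0.085), and *Sfrp2* (0.62 ± 0.14) without embryo 1 (adjusted p = 0.086) and without embryo 2 (adjusted p = 0.053). Lower in the caudal epiblast were *Rspo3* (-1.98 ± 0.22, edgeR adjusted p = 3.4e-10), *Wnt2* (0.203, 1.11 and 2.42 CPM against 11.3, 4.93 and 7.98 CPM) and *Wnt10a* (0.203, 0.740 and 0.659 CPM against 5.65, 5.69 and 5.98 CPM), calls that held without each embryo in turn. *Dkk1* was lost without embryo 1 (adjusted p = 0.097), *Wnt11* without embryo 1 (adjusted p = 0.19) or 3 (adjusted p = 0.14), and *Fzd7* without any 1 embryo (adjusted p from 0.080 to 0.10). *Wnt3a* (log2 difference 0.50) and *Fzd10* (0.36) did not pass the test (edgeR adjusted p = 0.19 and 0.36).

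The left-right organizer, the ciliated pit that breaks symmetry, was compared with the axial mesoderm. The axial class was set to take in both notochord and prechordal plate, so not all of it lies beside the organizer. After the anterior neural plate it had the highest levels of *Otx2* (107.6 CPM) and *Six3* (66.9 CPM). The part of such anterior cells in the differences was not tested. The axial class held some organizer signal: *Foxj1* was at 33.0 CPM and *Noto* at 46.6 CPM in it, against 179.9 and 159 CPM in the organizer, and the part of this in the results was not tested. *Rspo3* was at 250.4, 211 and 194 CPM in the organizer and 78.3, 68.2 and 71.2 CPM in the axial mesoderm, a log2 difference of 1.55 ± 0.29 (edgeR adjusted p = 1.1e-04). *Fzd5* had the opposite difference, 4.86, 3.87 and 2.87 CPM against 39.1, 33.5 and 23.3 CPM, or -3.08 ± 0.43 (edgeR adjusted p = 5.3e-07). These 2 calls held in each alternative that could be computed.

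In all, 2 members were called higher in the organizer (4.93% of all genes) and 4 lower (2.76%). *Wnt5b* was higher, at 42.3, 36.7 and 30.8 CPM against 11.3, 26.0 and 19.6 CPM, but the call was lost without embryo 1 (adjusted p = 0.39) and without embryo 3 (adjusted p = 0.097). *Fzd2* was lower (-1.02 ± 0.23), with no overlap between the lineages, and was lost without embryo 2 (adjusted p = 0.082). *Dkk1* (-1.43 ± 0.38) and *Fzd8* (-1.66 ± 0.53) were lower and both were lost without embryo 1 (adjusted p = 0.28 and 0.45), *Fzd8* also without embryo 2 (adjusted p = 0.30). For *Dkk1* the axial sum of embryo 3 lay within the organizer's range. *Fzd6* differed by -0.14 and *Sfrp1* by -0.46, and neither was called (edgeR adjusted p = 0.93 and 0.40).

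**Figure D5:**
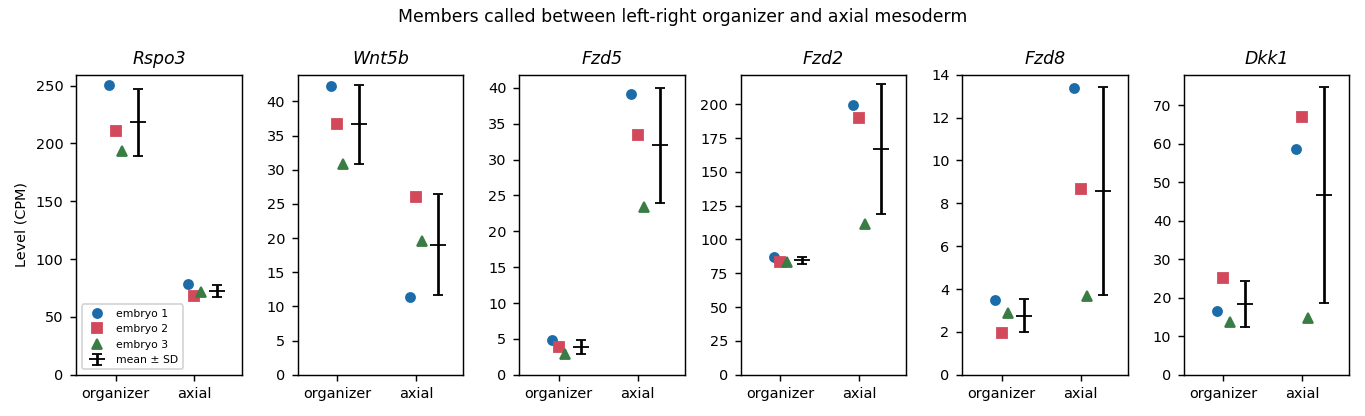
Levels in CPM (vertical axes, linear, from 0) of the 6 members called between the left-right organizer and the axial mesoderm, with 1 point for each embryo and the mean ± SD beside them (n = 3). The organizer points lie above the axial points for *Rspo3* and *Wnt5b* and below them for *Fzd5*, *Fzd2* and *Fzd8*, and for *Dkk1* the axial point of embryo 3 lies among the organizer points.

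Within the organizer, cells with UMIs of both *Dand5* and *Nodal*, genes of the crown cells at its rim, were set beside cells with neither. There were 29, 17 and 18 of the first and 9, 18 and 22 of the second, with unequal depth, and *Dand5* is itself in the organizer's marker list, so the values are a description. *Rspo3* was at 272, 269 and 248 CPM in the first and 156, 157 and 116 CPM in the second, without overlap. This was not particular to *Rspo3*. *Sfrp2* (68 against 21 UMIs) and *Wnt8a* (44 against 6 UMIs) were also higher in the first without overlap. *Wnt11* lay the other way, from 5 against 7 UMIs.

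The cardiac mesoderm was compared with the cardiopharyngeal and cranial mesoderm, the sums of which came from as few as 19 cells. *Wnt2* was higher in the cardiac mesoderm, at 85.4, 79.0 and 72.7 CPM against 13.9, 0 and 3.12 CPM (edgeR adjusted p = 3.1e-06). *Sfrp5* was higher by 1.69 ± 0.35 on the log2 scale, though not by DESeq2 (adjusted p = 0.076). These were the 2 members called higher (2.62% of all genes), and 3 were lower (1.18%): *Dkk1* (-2.56 ± 0.38), *Rspo1* (-2.55 ± 0.51) and *Sfrp1* (-1.18 ± 0.25). *Dkk1* and *Rspo1* were lost without embryo 1 (adjusted p = 0.052 and 0.051) and *Sfrp1* without embryo 3 (adjusted p = 0.10). Among the *Sfrp* and *Dkk* genes the leading pair was *Sfrp5* with *Sfrp1* in the cardiac mesoderm and *Sfrp1* with *Dkk1* in the other. The secreted inhibitor *Frzb*, which is not a member, was also called lower in the cardiac mesoderm.

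Other genes of the pathway were read from 7 lists with 48 tested genes in all. The canonical response list (8 genes, all tested) had 60 of 160 gene-lineage pairs called higher and 51 lower, 37.5% and 31.9%, where the shares of all gene-lineage pairs were 15.2% and 10.3%. Its members called higher numbered 7 in the late primitive streak (7.33% of all genes), 7 in the presomitic mesoderm (12.2%), 7 in the hindbrain neural plate (4.4%), and 6 each in the caudal epiblast (13.4%), the somitic mesoderm (11.9%) and the left-right organizer (19.4%). Those called lower numbered 8 in the erythroid lineage (27.3% of all genes), 7 each in the endothelium (19.8%) and the extraembryonic endoderm (30.5%), and 6 in the anterior neural plate (10.5%). *Axin2*, a feedback inhibitor switched on by the signal, was at 105, 107 and 97.5 CPM in the late primitive streak, 89.6, 84.5 and 86.9 CPM in the surface ectoderm and 82.7, 75.8 and 83.4 CPM in the caudal epiblast, the lineages with the highest ligand sums. It was at 17.9, 15.4 and 15.5 CPM in the anterior neural plate and was called lower there. All 5 lineages in which *Wnt3a* was called higher were among the 9 in which *Axin2* was. Of these, the hindbrain neural plate lost its *Wnt3a* call without embryo 2 or 3. *Axin2* was also called higher in the definitive endoderm and the somitic mesoderm, where the mean ligand sums were 79.7 and 100.5 CPM. It was not called in the allantois, where that sum was 206.7 CPM. A link between ligand levels and *Axin2* was not tested.

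*Lef1*, the transcription factor of the response, was highest in the presomitic mesoderm at 321, 284 and 238 CPM, the lineage with the most *Rspo3*. In the endothelium, where *Rspo3* averaged 280 CPM, *Lef1* was called lower. A link between *Rspo3* and *Lef1* was not tested. *Sp5*, a repressor induced by the signal, was highest in the left-right organizer at 282, 262 and 199 CPM. Against the anterior neural plate, 7 of the 8 response genes were higher in the caudal epiblast (5.06% of all genes). Against the axial mesoderm, *Lef1* (1.05 ± 0.19), *Cdx1* (0.95 ± 0.27) and *Tcf7* (0.80 ± 0.23) were higher in the organizer, and *Cer1* (-4.18 ± 0.49), *Tcf7l2* (-1.69 ± 0.22), *Lgr5* (-1.34 ± 0.43), *Prickle1* (-0.92 ± 0.25) and *Vangl1* (-0.66 ± 0.22) were lower. Of these 8, *Lef1*, *Cer1* and *Tcf7l2* held in each alternative that could be computed, whereas over the alternatives the adjusted p reached 0.20 for *Tcf7* (lost without embryo 1 or 2), 0.15 for *Cdx1* (without embryo 3), 0.39 for *Lgr5* and 0.78 for *Prickle1* (without embryo 1 or 3), and 0.57 for *Vangl1* (without any 1 of the 3).

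The other secreted or membrane inhibitors (10 genes, 8 tested) had 41 of 160 pairs called higher (25.6%, where all genes had 15.2%). *Cer1*, a secreted inhibitor of anterior tissue, was at 186, 96.7 and 100.7 CPM in the axial mesoderm and 59.1, 41.0 and 45.6 CPM in the somitic mesoderm. It was counted in this list, and whether it acts on Wnt ligands was not tested here. *Frzb* was highest in the cardiopharyngeal and cranial mesoderm (60.2, 113 and 62.4 CPM) and the presomitic mesoderm (62.5, 55.0 and 58.2 CPM). *Notum*, an enzyme that inactivates Wnt ligands and is itself a target, was highest in the primordial germ cells (30.8, 20.4 and 17.7 CPM), the surface ectoderm (17.8, 26.9 and 19.9 CPM) and the caudal epiblast (17.0, 18.9 and 13.8 CPM), and *Wif1* was highest in the left-right organizer (3.47, 3.87 and 5.74 CPM).

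Ligand secretion was represented by *Porcn*, which lipidates Wnt proteins, and *Wls*, which carries them to the surface, with 15 of 40 pairs called higher (37.5%). *Wls* was at 355, 419 and 321 CPM in the cardiopharyngeal and cranial mesoderm, 243, 294 and 176 CPM in the surface ectoderm and 52.0, 52.9 and 37.5 CPM in the anterior neural plate, and *Porcn* was highest in the definitive endoderm (40.5, 30.3 and 38.8 CPM). The coreceptors and alternative receptors (6 genes) had 27 of 120 pairs called higher (22.5%): *Lrp6*, a coreceptor of the canonical branch, was called in 2 lineages, the definitive endoderm (59.5, 49.1 and 57.3 CPM) and the organizer (58.3, 60.9 and 43.0 CPM), and *Ror2*, a receptor for *Wnt5a*, was highest in the surface ectoderm (54.9, 34.6 and 54.6 CPM). The R-spondin receptors and receptor turnover genes (5 genes, 4 tested) had 12 of 80 pairs called higher (15.0%), the same share as over all genes to the nearest percent. *Lgr5*, a receptor for R-spondins, was highest in the definitive endoderm (23.6, 27.0 and 25.9 CPM) and the axial mesoderm (19.6, 16.1 and 16.0 CPM), and not in the presomitic mesoderm (3.14, 0.759 and 3.32 CPM), where *Rspo3* was highest. Planar cell polarity genes (9 genes) had 45 of 180 pairs called higher (25.0%), with *Vangl2*, a core polarity protein, called in the definitive endoderm (61.1, 38.4 and 43.8 CPM), the axial mesoderm (46.3, 49.6 and 46.6 CPM) and the anterior neural plate (46.8, 34.8 and 39.1 CPM), and intracellular transduction genes (11 genes) had 35 of 220 (15.9%), a share near that of all genes.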

How the data were processed

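Single-cell 3′ RNA libraries (10x Genomics) from 3 wild-type embryos were analysed, each embryo 1 replicate. The authors deposited for each library a filtered matrix of raw UMI counts per gene and barcode. Per the labels it was made with Cell Ranger 3.1.0 on mm10 with an added EGFP sequence. Counts of exons and introns, and of strands, were not separated here.

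Barcodes were kept under the study's stated limits on detected genes (1500 to 8500, or 7500 for embryo 2) and on mitochondrial UMIs (at most 10%). The study removed clusters of low mitochondrial share after a first clustering. Here a floor of 0.5% was used in their place, which removed 334, 160 and 79 barcodes. Scrublet's own threshold called 1, 3 and 1 doublets and was taken to have failed, so doublets were left in and an alternative left out the top 6% of doublet scores. Each cell was given the lineage of its highest mean marker score (limit 0.35, margin 0.05). These limits were set after the marker scores, the class sizes and the leading genes had been seen and before any fit. 1814 sorted cells lay near the score limit and 1101 near the margin. The members and lists were chosen with earlier results of these data known.

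UMIs were summed per embryo and lineage (59 sums of 10 or more cells, 257747 to 24540307 UMIs). CPM is the count per 1000000 UMIs of the sum. The edgeR 4.0.16 quasi-likelihood test (R 4.3.3, TMM, filterByExpr, Benjamini-Hochberg over 13306 genes) was fitted to all sums with lineage as the only term. SEs of log2 fold changes were derived from the F statistic. On data simulated for the presomitic mesoderm (12208 genes) it recovered 98% of genes changed 2-fold and 100% of those changed 4-fold. Of its calls 3.88% were false. The simulation gave all lineages the same profile, changed only genes above a minimum level, and drew the sums without an embryo effect. Its rates therefore do not carry over to the rarer members or the smaller lineages. Sums with the same number come from the same embryo. Their deviations from the lineage means correlated at 0.156 to 0.333 for the caudal epiblast comparisons, 0.0713 to 0.0831 for the organizer and axial mesoderm, and 0.0149 to 0.109 for the cardiac comparison, and another fit added the embryo as a replicate block. The other alternatives were DESeq2 1.42.0, its size factors in edgeR, no filter on low counts, leaving out each embryo, a stricter margin of 0.15, graph clusters (scanpy 1.11.5) built without the members, low-mitochondrial barcodes kept, and cells thinned to 5000 UMIs. Every member was named, with values in each embryo for those called higher in any lineage. Other pathway genes were counted by list and named only from a set list or, if called, in the organizer comparison. Gene coordinates are those of a GENCODE annotation of mm10 (GRCm38), and promoter windows were taken from RefSeq (GRCm38.p6) by symbol.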

Additional observations from a re-analysis of the deposited data

Results flagged for a closer look

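A count appeared outside the genes the comparisons use. The deposited feature list holds EGFP, a sequence added to the genome, and 59 UMIs of it were found in 41 kept cells of embryos labelled wild type. Embryo 1 had 28 UMIs in 20 cells, embryo 3 had 31 UMIs in 21 cells, and embryo 2, the library of lowest depth, had 0 in 7956 kept cells. That count allows up to 0.0377% of its cells to hold an EGFP UMI, and it sets no limit on cells that express EGFP. There are no control samples to set these against, and no member's value uses EGFP.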

How the results depend on the processing

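Of the 153 member-lineage pairs called higher, 109 were called in every alternative that could be computed, and of the 35 calls between lineages 20 were. The number of pairs was 163 with the embryo as a replicate block, 157 with DESeq2, 155 with DESeq2's size factors, 197 without a filter on low counts, 152 with the stricter margin, 138 with graph clusters (which gave 13 lineages, so 54 of the pairs could not be computed), 166 without the top doublet scores, 154 with low-mitochondrial barcodes and 119 with thinned cells. Of the 138 with graph clusters, 90 were among the 153 and 48 were added. Levels moved too. The mean level in a tested member's top lineage stayed within its SD for 9 of 21 members with graph clusters and 18 of 29 with thinned cells. The lowest ratios to the main level were 0.49 and 0. With the stricter margin 25 of 29 stayed within it. The block lost 1 pair, *Dkk3* in the organizer, and added 11; it lost none of the 35 calls between lineages. Between the caudal epiblast and the presomitic mesoderm, the 10 calls became 5 with thinned cells, and 6 to 7 without 1 embryo, lowest without embryo 1. The organizer's 6 calls against the axial mesoderm became 3 with thinned cells, and without 1 embryo 4 to 6, of which 3 to 5 were among the 6. The 5 calls between the cardiac and the cardiopharyngeal mesoderm became 3 to 5 without 1 embryo, lowest without embryo 1. The cause was not tested. The last 2 comparisons could not be computed with graph clusters, which gave no organizer, axial or cardiopharyngeal class.

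The direction turned in 2 of 188 called differences, both in the streak with graph clusters: *Wnt8a* at -0.36 and *Wnt10a* at -0.24 on the log2 scale. Leaving out embryo 1, 2 or 3 lost 22, 20 and 15 of the 153 pairs. With thinned cells 18 pairs could not be computed, and the part of depth in this was not tested. The smallest sums came from 19 cells. The tests measure the spread of the sums about their lineage means, pooled over all lineages of 3 embryos from 1 stage. Without the block they treat sums of the same embryo as independent. Their p-values therefore do not measure the spread between embryos within a single lineage.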

Other observations

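Cells that scored for no lineage clearly carried 35.4% to 74.0% of each member's UMIs and enter no comparison above. In these cells *Fzd2* was at 119, 108 and 93.9 CPM in embryos 1, 2 and 3, *Rspo3* at 109, 106 and 119.95 CPM and *Sfrp1* at 99.9, 85.8 and 82.3 CPM. *Wnt5a* was the leading ligand among them at 39.7, 40.9 and 39.2 CPM, followed by *Wnt8a* at 28.0, 25.8 and 16.7 CPM. *Wnt10b* (74.0%) and *Wnt1* (71.8%) had the highest shares of their UMIs outside the sorted lineages, and *Dkk3* the lowest.

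Pairs of members were also read cell by cell, as a description in which deeper cells have more chances at both genes. In the anterior neural plate, 65.2%, 65.1% and 60.2% of cells had UMIs of *Fzd5* and *Sfrp1*, a receptor and an inhibitor. In the caudal epiblast, 47.2%, 24.9% and 25.1% of cells had UMIs of *Wnt3a* and *Wnt8a*, and in the late primitive streak 66.4%, 36.2% and 39.9% had UMIs of *Wnt5a* and *Wnt5b*. In the surface ectoderm 26.8%, 14.8% and 7.69% of cells had UMIs of *Wnt6* and *Dkk4*.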
